A study of Mus musculus with 2 samples.

Results

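Distal accessible sites that carried no DNase I footprint were examined in the adrenal gland of mice. Accessible chromatin was mapped by DNase-seq in 2 samples, biological replicates 1 and 2 of 1 group. Both came from female B6CASTF1/J mice, a cross between C57BL/6J and CAST/EiJ strains, aged 10 days, untreated as far as the labels say, with 3 females named for each sample and the same donor record for both. There was no second condition, so every comparison below is between kinds of site. Sites were chosen by measured values: a shared peak (peaks of both replicates overlapping by at least 1 bp, merged) had to lie more than 1 kb from all 141767 annotated transcript starts (GENCODE M21) and overlap no footprint of either replicate. Of 48299 shared peaks, 26622 were distal, and 230 of these had no footprint, which is 0.864% of the distal shared peaks. The remaining 26392 distal shared peaks were footprinted. Within 1 kb of a start, 1167 of 21677 shared peaks (5.38%) had no footprint.

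DNase I cuts DNA that is not wrapped in nucleosomes, and a protein bound to such DNA shields a short stretch from the enzyme. That stretch is seen as a footprint, a local dip in cutting inside an accessible site. Factors that stay long on DNA, such as the insulator factor CTCF, are known for deep footprints. Factors with a short residence time, such as many nuclear receptors, are known for shallow ones, and a footprint also needs enough cuts to be called. The adrenal gland is rich in nuclear receptor activity: its cortex depends on the orphan receptor SF-1 and responds to steroid and clock signals, whereas its medulla holds the catecholamine-making chromaffin cells. To look at the labelled tissue, listed genes with a shared peak within 1 kb of a start were counted. One was found for 14 of 18 steroidogenesis genes, 24 of 27 cortex regulators and 21 of 28 chromaffin genes. Among genes of other tissues, 3 of 15 kidney and 4 of 14 skeletal muscle genes had one. Genes of other cells that may lie in or around the gland had one as well, in 13 of 14 adipocyte, 13 of 16 capsule and fibroblast, 11 of 14 Schwann and sustentacular and 9 of 16 endothelial genes. So did 22 of 22 cholesterol synthesis, 17 of 17 circadian clock, 19 of 19 immediate early and 14 of 15 glucocorticoid response genes. The share over all genes was not computed, so these counts alone do not identify the tissue. Replicate 1 had 98813 peaks and 339116 footprints in the lists used here, and replicate 2 had 55135 peaks and 241536 footprints. Read depth is unknown, and the cell types that contribute to a site in this whole tissue cannot be told apart.

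The sequences at the centre of the 3 highest sites without a footprint are shown first. CG dinucleotides are in capitals, because the 230 sites were on average richer in them than footprinted sites of the same heights. Each is 151 bases of the mm10 plus strand, 5′ to 3′, read from the RefSeq copy of GRCm38. The first is chr19:23136567-23136717, between genes, 1574 bp from a start of 2410080I02Rik and 4416 bp from Klf9. The second is chr11:74832926-74833076 in an intron of Mnt, which encodes a partner of Max that represses Myc targets. The third is chr6:145341456-145341606, between genes, 24673 bp from the nearest start, that of Gm15707.
Site near Klf9: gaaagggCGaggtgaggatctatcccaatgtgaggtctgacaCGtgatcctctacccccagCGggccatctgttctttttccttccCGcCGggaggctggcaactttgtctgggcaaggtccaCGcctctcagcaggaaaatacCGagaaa
Site in Mnt: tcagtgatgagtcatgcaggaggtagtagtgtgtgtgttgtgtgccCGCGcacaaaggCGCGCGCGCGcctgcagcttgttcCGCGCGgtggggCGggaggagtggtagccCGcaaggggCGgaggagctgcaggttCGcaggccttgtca
Site near Gm15707: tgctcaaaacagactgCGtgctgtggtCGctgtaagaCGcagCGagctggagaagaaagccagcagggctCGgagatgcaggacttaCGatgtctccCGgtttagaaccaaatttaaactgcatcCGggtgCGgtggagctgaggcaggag
They held 7, 14 and 9 CG dinucleotides in the order printed. Their ratios of CG observed over expected were 0.585, 0.944 and 0.807, above the median of 0.398 over the 230 sites. The Mnt site also holds an AP-1 match (tgagtca) at the left end of its sequence.

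The next set shows the 1 site without a footprint that held a CTCF motif in the 151 bases around its centre. For contrast, the footprinted distal site with a CTCF motif that was nearest to it in height is given. The unfootprinted site lies in an intron of the glutamate receptor gene Grik3 (chr4:125703496-125703646, heights 0.628 and 0.477 in replicates 1 and 2), and its motif match is in capitals. The footprinted site lies 6794 bp from a start of C330018A13Rik (chr5:116116646-116116796, heights 0.648 and 0.459), and its capitals mark bases inside a footprint of either replicate. It was chosen after its values were seen.
Unfootprinted CTCF site: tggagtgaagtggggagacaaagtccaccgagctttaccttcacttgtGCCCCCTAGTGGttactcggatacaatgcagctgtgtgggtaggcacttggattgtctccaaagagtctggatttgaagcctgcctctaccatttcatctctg
Footprinted CTCF site: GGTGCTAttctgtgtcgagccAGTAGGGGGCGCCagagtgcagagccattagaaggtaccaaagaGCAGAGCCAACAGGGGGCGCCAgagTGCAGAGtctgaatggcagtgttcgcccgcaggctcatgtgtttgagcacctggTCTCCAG
The footprinted site held 4 footprints in replicate 1 and 3 in replicate 2, and 56 of the 151 bases shown lay in one. One of its footprints covered most of the CTCF match.

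The last set shows the 1 unfootprinted site with an SF-1 motif in its central 151 bases (chr3:137281201-137281351, between genes, 8308 bp from a start of Gm567). The motif is the element of the factor that controls steroid enzyme genes, and the match is in capitals. This site is set beside both footprinted distal sites nearest to it in mean height, whose capitals mark footprint bases. These are chr2:159635940-159636090, 142129 bp from a start of Gm11445, and chr10:118249339-118249489, 2959 bp from a start of Gm9029.
Unfootprinted SF-1 site: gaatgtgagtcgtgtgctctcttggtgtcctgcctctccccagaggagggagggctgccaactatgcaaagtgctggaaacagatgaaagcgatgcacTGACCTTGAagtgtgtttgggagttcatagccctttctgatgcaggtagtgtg
Footprinted site near Gm11445: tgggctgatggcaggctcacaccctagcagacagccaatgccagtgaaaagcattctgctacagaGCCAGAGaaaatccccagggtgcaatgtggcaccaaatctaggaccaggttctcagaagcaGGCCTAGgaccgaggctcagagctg
Footprinted site near Gm9029: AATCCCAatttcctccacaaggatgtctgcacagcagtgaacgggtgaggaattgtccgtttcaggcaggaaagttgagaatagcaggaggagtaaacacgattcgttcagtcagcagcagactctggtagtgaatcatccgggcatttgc
The SF-1 site had heights of 0.394 and 0.384 in replicates 1 and 2, the site near Gm11445 0.394 and 0.384, and the site near Gm9029 0.488 and 0.291. The first footprinted site had 0 footprints in replicate 1 and 2 in replicate 2, and the second had 4 and 1, most of them outside the bases shown. A footprint of replicate 2 began 4 bp outside the SF-1 site.

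Sites without a footprint were low. Heights are the authors' normalised signal, taken as the highest peak of each replicate in a site. In replicate 1 the 230 sites had a lowest, median and highest height of 0.194, 0.725 and 2.63, and the footprinted distal sites 0.10, 1.5 and 54.6. In replicate 2 the values were 0.167, 0.592 and 1.69 without a footprint and 0.143, 0.874 and 45.7 with one. In both replicates the range of sites without a footprint lay inside that of footprinted sites, and no site without a footprint reached a mean height above 2.16. Footprints and heights come from the same cuts, so these values describe the selection and are not tested.

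**Figure D1:**
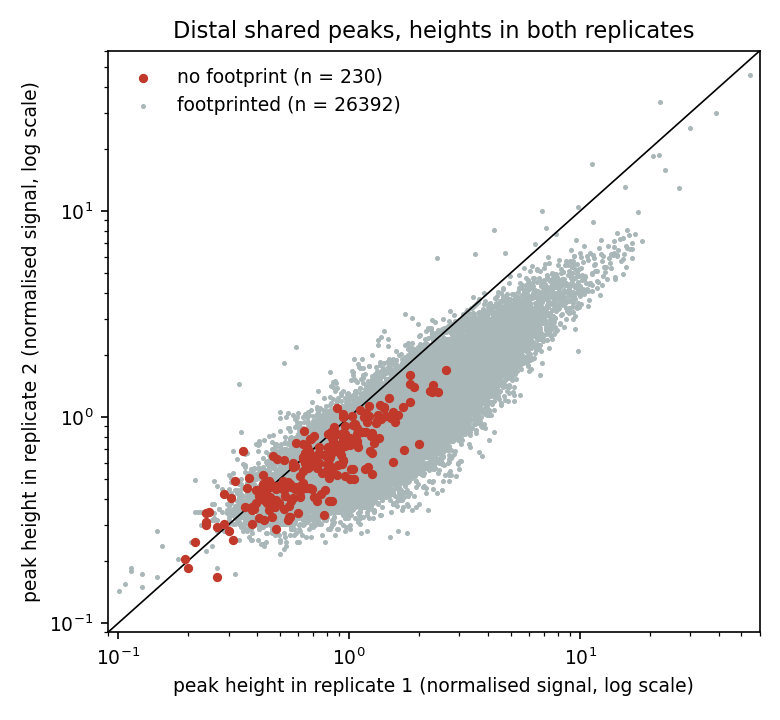
Height of each distal shared peak in replicate 1 (x axis) and replicate 2 (y axis), normalised signal on log scales, for sites without a footprint and footprinted sites; the line marks equal heights. The 230 sites without a footprint lie in the lower part of the cloud, between 0.194 and 2.63 in replicate 1.

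The share of distal sites without a footprint fell along the height range. It was 3.60% in the lowest decile of mean height (96 of 2664 sites, exact binomial 95% interval 2.93% to 4.38%), 1.54% in the second and 0.526% in the fifth. In the highest decile it was 0 of 2663, which an exact interval limits to 0.138%. Of the 230 sites, 181 were higher in replicate 1 and 49 in replicate 2. Their mean log2 ratio of replicate 1 over replicate 2 was 0.30, against 0.50 in footprinted sites of the same mean height (difference -0.20, 95% interval -0.25 to -0.15). This ratio is a description too, because each replicate's footprint list was part of the selection.

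The absence of footprints was partly shared by the replicates. Replicate 1 had no footprint in 648 distal sites (2.43%), and replicate 2 had none in 914 (3.43%). Both counts include the 230 sites with none in either replicate. Of the sites with none in replicate 1, 35.5% had none in replicate 2 either, and of the sites with none in replicate 2, 25.2% had none in replicate 1. Footprinted sites of the same heights held a mean of 2.33 footprints in replicate 1 and 2.31 in replicate 2.

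The 10 highest sites were mostly beside taller peaks. The site near Klf9, a target gene of the glucocorticoid receptor, had heights of 2.63 and 1.69 in replicates 1 and 2, and a peak 113 bp away had 4.91 and 3.04. The Mnt site had 2.43 and 1.33, with a neighbour of 16.8 and 6.55 at 460 bp. The site near Gm15707 had 2.31 and 1.43, with a neighbour of 3.50 and 1.20 at 60 bp. In this last case the neighbour was the lower of the pair in replicate 2. The fourth lay in an exon of Ccdc106 (chr7:5060204-5060600; 2.27 and 1.33) and the fifth in an intron of Bahd1, which encodes a protein of silent chromatin (chr2:118902601-118902875; 2.24 and 1.34). The Bahd1 site was the exception among the 10, with its nearest neighbour 1120 bp away. The sixth to the tenth were nearest to starts of Grap (1.82 and 1.60), C430042M11Rik (1.91 and 1.40), Pura, which encodes a single-strand binding protein (1.83 and 1.45), Tex44 (1.82 and 1.18) and Zfp36l2, which encodes a protein that promotes mRNA decay (1.70 and 1.12). The neighbours of these 5 lay 40 to 340 bp away and were higher than the site in both replicates.

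Most sites without a footprint had another peak close by. A neighbour here is another merged peak region of either replicate. Within 500 bp, 187 of 230 sites had one (81.3%, exact 95% interval 75.7% to 86.1%), against 16.9% of footprinted distal sites standardised to the same distribution of mean height. The ratio of these shares was 4.82 (95% interval 4.38 to 5.27). Within 100 bp the shares were 31.7% and 6.46%, within 250 bp 64.8% and 11.6%, and within 5 kb 87.8% and 43.9%. The ratio was 3.28 with sites chosen on replicate 1 alone and 2.80 on replicate 2 alone, where many more sites qualify, and 1.72 with the authors' longer peak list. In these runs neighbours were also taken only from that replicate or from the longer list, so the measure is not quite the same. With the main sites and neighbours, matching on width as well as height gave a ratio of 3.70.

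**Figure D2:**
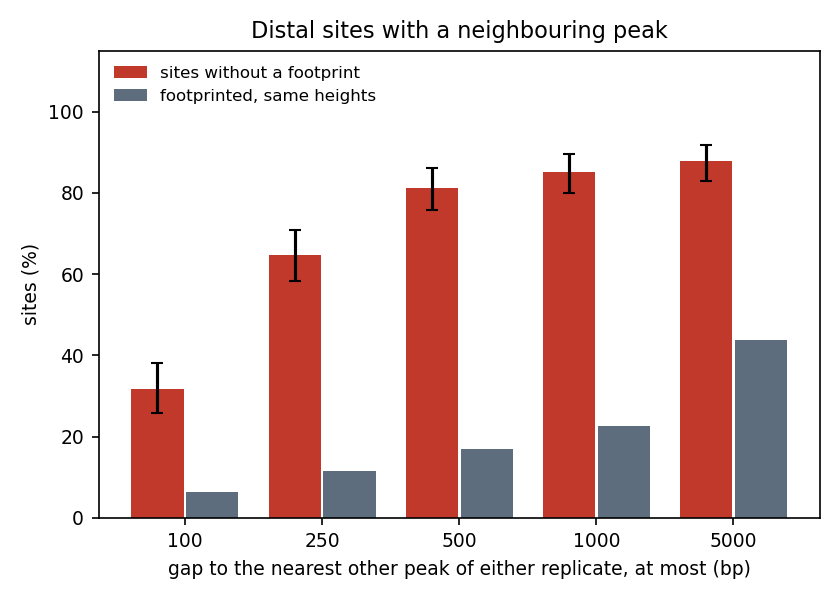
Share of sites (y axis, percent) with another peak of either replicate within the distance on the x axis, in sites without a footprint and in footprinted sites standardised to the same heights; error bars are exact 95% intervals of the unfootprinted shares. Within 500 bp the shares are 81.3% and 16.9%.

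The neighbours themselves were tall and mostly footprinted. Of the 187 sites with one, 157 had a neighbour seen in both replicates. The median neighbour height was 2.02 in replicate 1 and 1.24 in replicate 2. Each median leaves out neighbours without a peak in that replicate. All 187 sites themselves had medians of 0.795 and 0.638. In replicate 1 the neighbour was higher than the site in 81.7% of unfootprinted sites, against 41.0% of footprinted sites that had a neighbour (ratio 1.99, 95% interval 1.80 to 2.18; 186 sites had a counterpart of the same height). In replicate 2 the shares were 80.6% and 32.4%. A neighbour without a peak in the replicate counted as not higher, so absent neighbours lower these shares. Neighbours seen in only 1 replicate were more common beside footprinted sites. The neighbour was seen in both replicates in 84.4% of unfootprinted and 44.8% of footprinted cases. It lay within 1 kb of a start in 23.1% and 5.80%. It held a footprint in 80.1% and 77.8%, a ratio of 1.03 with an interval of 0.942 to 1.11. A difference in how often the neighbours held footprints was thus not detectable at these numbers.

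Footprints started at a distance from these sites. The nearest footprint of either replicate lay a median of 200 bp from the edge, from 1 bp to 386195 bp, and 188 sites (81.7%) had one within 500 bp. Outside the edge, the share of bases in a footprint of replicate 1 was highest at 300 to 350 bp, at 5.34%, against 0.556% beside footprinted sites of the same heights (difference 4.78 percentage points, 95% interval 3.61 to 5.96). In replicate 2 it was highest at 250 to 300 bp, at 4.88% against 0.368% (difference 4.51, interval 3.40 to 5.62). In the first 50 bp the shares were 0.665% and 1.01% in replicate 1 and 1.34% and 1.47% in replicate 2, and both intervals of the difference included 0. The rule leaves out any site that a footprint overlaps, including a footprint that straddles the edge. Footprints were up to 71 bp long, so shares within that distance of the edge were partly set by the rule. Farther out, the rule uses nothing, but sites were matched on height only and not on neighbours. Neighbouring peaks were more common beside unfootprinted sites and mostly held footprints, so these shares are not separate from the neighbour comparison. Whether the difference goes beyond the neighbours was not tested.

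**Figure D3:**
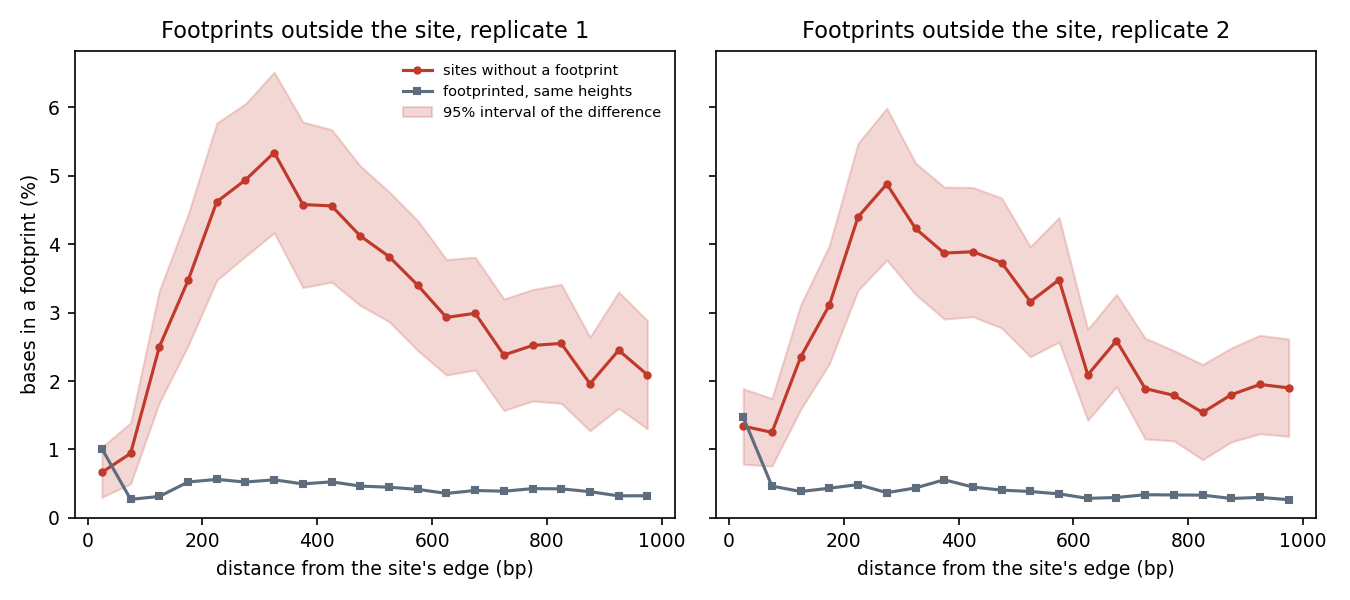
Share of bases inside a footprint (y axis, percent) by distance from the site's edge (x axis, bp, in steps of 50 bp) in each replicate, for sites without a footprint and footprinted sites of the same heights; the band is the 95% interval of the difference, drawn around the unfootprinted values. The curve of unfootprinted sites peaks at 5.34% in replicate 1 and 4.88% in replicate 2.

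A minority of sites stood alone. No neighbour within 500 bp was found for 43 sites, whereas 43 had a neighbour within 1 kb of a start and 144 a neighbour farther from starts. The 43 lone sites had median heights of 0.548 and 0.428 in replicates 1 and 2 and a median width of 168 bp. The 144 had 0.735, 0.623 and 262 bp, and the 43 next to a start had 0.956, 0.682 and 300 bp. The highest lone site after that in Bahd1 lay in an intron of Polr1d, a gene of an RNA polymerase subunit, at chr5:147094401-147094600. It had heights of 2.00 and 0.744, its nearest neighbour was 16820 bp away, and its nearest footprints were 8958 and 8955 bp away. Among all 230, 18 lay within 5 kb of another site without a footprint, so a few are not separate loci, and the nearest starts belonged to 218 genes.

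The share without a footprint differed steeply with the distance to a start. Of shared peaks that overlapped a start, 1.70% had no footprint (246 of 14432). The share was 12.9% up to 500 bp from a start, 12.4% from there to 1 kb and 2.75% (74 of 2687) from 1 to 2 kb. From 2 to 5 kb it was 0.617%, and from 10 to 50 kb 0.656%. Distal sites as a whole stood at 0.864%, against 11.0% for shared peaks within 1 kb of a start standardised to the same heights (ratio 0.0784, 95% interval 0.0683 to 0.0895). Of the 1167 unfootprinted peaks within 1 kb of a start, 91.9% also had a neighbour within 500 bp. At the limit itself, 10 sites lay at most 100 bp beyond it, and 33 unfootprinted peaks lay less than 100 bp inside it and were left out. Just inside the selection was chr19:53311521-53311940, at 1003 bp with heights of 0.936 and 0.998, and just outside it chr3:31093701-31094060, at 998 bp with heights of 1.80 and 1.46. At the footprint limit, 10 sites had a footprint within 10 bp of the edge, and 242 footprinted sites had at most 10 footprint bases in both lists together. On the log10 scale of base pairs, the mean distance to a start was 3.84 in unfootprinted sites and 4.16 in footprinted sites of the same heights (difference -0.327, 95% interval -0.408 to -0.247). Over 5 kb from every start this difference was -0.0526 with an interval that included 0.

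**Figure D4:**
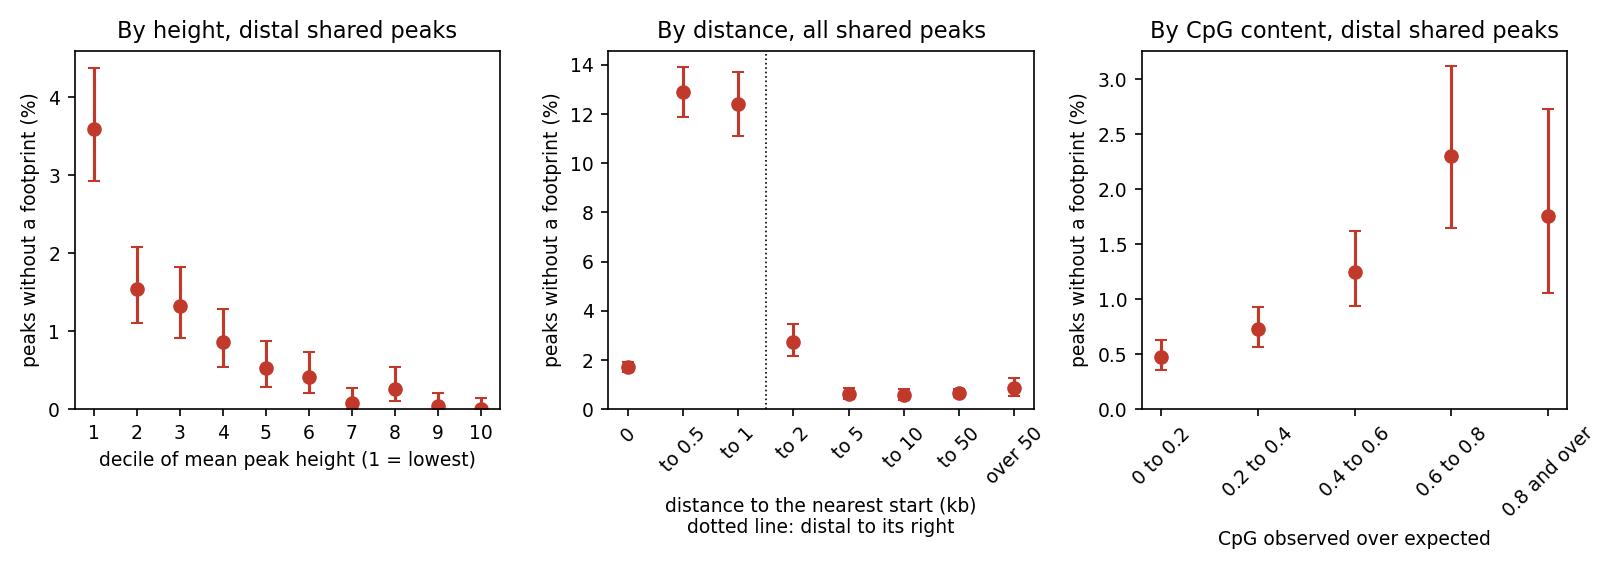
Share of peaks without a footprint (y axis, percent) by decile of mean height in distal shared peaks, by distance to the nearest start in all shared peaks, and by the CpG ratio in distal shared peaks, with exact 95% intervals. The share is highest in the lowest height decile (3.60%), just beside starts (12.9%) and at CpG ratios from 0.6 to 0.8 (2.30%).

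Sites without a footprint were richer in CpG. In the 151 bases around the centre, the CpG ratio (CG dinucleotides observed over those expected from base composition) averaged 0.421 in unfootprinted sites and 0.272 in footprinted sites of the same heights (difference 0.149, 95% interval 0.118 to 0.181). GC content was 55.9% and 52.5% (difference 3.46 percentage points, interval 2.57 to 4.36). A CpG ratio of at least 0.6, as in CpG islands, was found in 59 unfootprinted sites (25.7%), against 7.61% of footprinted sites (ratio 3.37, interval 2.60 to 4.30). The share without a footprint was 0.479% of distal sites with a ratio under 0.2, 1.25% from 0.4 to 0.6 and 2.30% from 0.6 to 0.8. In the richest class, from 0.8, it was 1.76% (19 of 1080 sites), with an interval of 1.06% to 2.73% that overlaps that of the class before. The difference in CpG ratio was 0.149 at 1 to 2 kb from a start, 0.137 at 2 to 10 kb and 0.134 beyond 10 kb, each with an interval above 0. The values moved with the neighbours: matching on height and neighbour together left a difference of 0.0999 (interval 0.0672 to 0.133), and the 43 lone sites gave 0.0902. Sites chosen on replicate 1 alone gave 0.0378 and on replicate 2 alone 0.0621, and the longer peak list gave 0.0256. Whether cutting preference of the enzyme on CpG-rich DNA had a part was not tested.

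Other features were less stable. Unfootprinted sites were wider, with a mean of 271 bp against 225 bp at the same heights (difference 46.6 bp, 95% interval 29.6 to 63.6), although a wider site gives more room for a footprint. Matching also on neighbours left 3.48 bp with an interval that included 0, and the difference had the other sign with the longer list (-12.3 bp) and with replicate 1 alone (-22.3 bp) or replicate 2 alone (-33.2 bp). Exons held 27 sites (11.7% against 5.31%, ratio 2.21, interval 1.46 to 3.24). Matching on distance to a start as well gave a ratio of 1.37 with an interval that included 1. Introns held 100 sites (43.5% against 44.3%) and intergenic DNA 103 (44.8% against 50.4%). Repeats marked in the reference took up 7.36% of the bases in unfootprinted and 10.3% in footprinted sites (difference -2.92 percentage points, interval -4.40 to -1.44). With neighbours matched this was -1.03, with an interval that included 0. By chromosome, leaving out Y with its 7 distal sites, the share without a footprint ran from 0.559% on chromosome 16 to 1.90% on X, and the intervals of these chromosomes overlapped.

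The CTCF motif was nearly missing from the 151 bases around the centre of sites without a footprint. CTCF is known for deep footprints, and the rule left out each footprinted site, so this comparison is not independent of the selection. It describes the selected sites and is not a test of CTCF binding. Only these bases were searched, in sites with a mean width of 271 bp without a footprint and 225 bp with one. CTCF, which organises chromatin loops and blocks enhancers, had a match in 1 of 230 sites (0.435%, exact limit up to 2.40%). In footprinted sites of the same heights the share was 8.93%, and over all distal shared peaks 13.2%. The ratio was 0.0487 with a 95% interval of 0.00123 to 0.271, and it stayed below 1 (up to 0.461) when the interval was widened for 31 motifs. The single match was that in Grik3. The ratio was 0.397 with sites chosen on replicate 1 alone, 0.149 on replicate 2 alone and 0.465 with the longer peak list, in each case below 1. It was 0.108 (interval 0.00272 to 0.646) with neighbours matched. The 43 lone sites held 0 matches, and at that number the interval, up to 1.07, included 1.

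For the other 30 motifs the intervals were wide and, apart from that of 1 E-box, included 1. Matches were counted on either strand in the same 151 bases. CAGATG, an E-box of helix-loop-helix factors, was found in 21 sites (9.13% against 14.6%, ratio 0.627, interval 0.393 to 0.943), but the interval widened for 31 motifs, 0.287 to 1.16, included 1. The E-box CAGCTG was found in 34 sites (14.8% against 15.2%) and CACGTG, the E-box of clock and Myc factors, in 9 (3.91% against 2.64%). TGANTCA, the AP-1 element of Fos and Jun, was found in 10 (4.35% against 7.21%, ratio 0.603, interval 0.290 to 1.10). GGAATG, the TEAD element, was found in 23 (10.0% against 9.94%) and AGATAA, the GATA element, in 8 (3.48% against 4.94%). TTGNNCAA, the C/EBP element, was found in 9 (3.91% against 4.95%) and TGTGGTT, the RUNX element, in 7 (3.04% against 2.95%). CCAATNAG, the NFY element, was found in 5 (2.17% against 1.63%). At least 1 of all 31 motifs, CTCF included, was found in 114 sites (49.6% against 62.5%, ratio 0.794, interval 0.686 to 0.902), and 116 sites held none. CTCF, at 0.435% against 8.93%, is part of this difference, and the share without CTCF was not computed.

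**Figure D5:**
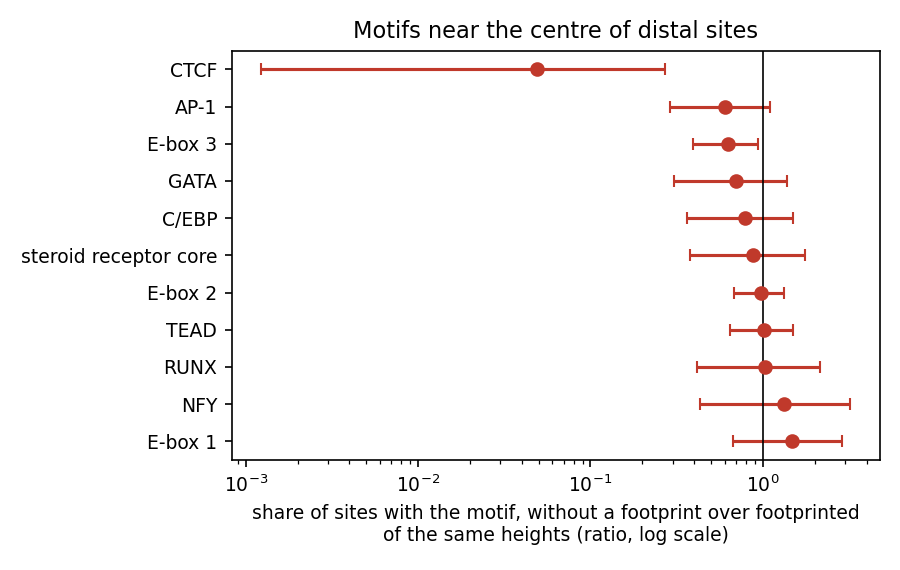
Ratio of the share of sites with a motif, without a footprint over footprinted at the same heights (x axis, log scale), with 95% intervals, for CTCF and the motifs with at least 5 matches in unfootprinted sites. E-box 1 is the clock and Myc element CACGTG, E-box 2 the helix-loop-helix element CAGCTG, and E-box 3 the related element CAGATG. CTCF lies at 0.0487 and the other intervals, except that of E-box 3, include 1.

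Nuclear receptor motifs were rare on both sides. TCAAGGTCA, the SF-1 element, was found in 1 site (0.435% against 0.535%, ratio 0.813, interval 0.0205 to 5.06). AAAGGTCA, bound by Nr4a orphan receptors, was found in 3 (1.30% against 1.27%), and TAGGTCA, bound by Ror and Rev-erb receptors, in 4 (1.74% against 1.40%). GGTCANAGG, a direct repeat bound by Rxr heterodimers, was found in 1 (0.435% against 0.885%). ACANNNTGT, the core of the steroid receptor element, was found in 8 (3.48% against 3.95%), and the full element, which contains that core, in 0 (against 0.283%). For the nuclear receptors the intervals were too wide to tell a difference in either direction. Of the remaining motifs, TAATTA (homeobox) and ACAATGG (SOX) were found in 4 sites each, and TGTTTAC (FOX), AAGATGGCG (YY1) and CAAAGTCCA (HNF4) in 2 each. GGGGCGGGG (SP and KLF), GCATGCGC (NRF1) and TCACNCCAC (SREBP) were found in 1 each. CCGGAAGT (ETS), TGACGTCA (CRE), TTCCNGGAA (STAT) and the longer NFI, REST, MEF2 and SRF motifs were found in 0. A count of 0 of 230 allows a share of up to 1.59% by an exact 95% interval, and footprinted sites held these 7 motifs in 0.169% to 0.663%.

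The cover of the sites by stretches that the authors list at a low false discovery rate (FDR) was set largely by the selection, since the lowest FDR inside each of the 230 sites was under 0.001 in both replicates (at most 0.000648 and 0.000771). The values are therefore given only beside those of footprinted sites, which passed the same list. Bases at an FDR of at most 0.05 made up 99.8% of unfootprinted and 99.7% of footprinted sites of the same heights in replicate 1, and 98.0% and 97.6% in replicate 2. At most 0.001, the shares were 89.3% and 94.3% in replicate 1 (difference -4.95 percentage points, 95% interval -7.34 to -2.56). In replicate 2 they were 73.4% and 72.8%, with an interval that included 0.

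Sites without a footprint were also counted near genes on 13 lists, which cover the adrenal cortex and medulla, other cells in or around the gland, signal responses and other tissues. Within 50 kb of a start of the 228 genes on 13 lists there were 523 distal shared peaks, and 5 of them had no footprint (0.956%, exact 95% interval 0.311% to 2.22%), against 0.864% of all distal shared peaks. Near steroidogenesis genes it was 0 of 31, near chromaffin genes 0 of 44, near cholesterol synthesis genes 0 of 33 and near clock genes 0 of 66, counts that allow shares of up to 11.2%, 8.04%, 10.6% and 5.44% by exact intervals. The adipocyte, capsule and fibroblast, endothelial, Schwann and sustentacular, and kidney lists, with 30 to 34 such peaks each, had 0 as well. The 5 sites are named by gene. That near Cited2, a coactivator gene needed for adrenal development, lay 1178 bp away (1.54 and 0.607), and that near Klf9 is described above. The immediate early genes Fosb and Klf4 each had one, at 1971 bp (0.628 and 0.744) and 1255 bp (0.615 and 0.514). The muscle factor gene Myog had one at 8836 bp (0.635 and 0.855), whose nearest start was that of Ppfia4. Within 100 kb the count was 16 of 1028 (1.56%, interval 0.892% to 2.52%), and there the interval lay above the 0.864% of all distal shared peaks, so the reading depends on the window.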

How the data were processed

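Chromatin accessibility was measured by DNase-seq in 2 adrenal gland samples, 1 group of 2 biological replicates per the labels. Per the deposited file listing, the files were made on mm10 for each sample separately, without pooling. The aligner and the callers of peaks and footprints, not given in the sources used here, are unknown. Column 7 of the deposited peak lists is a signal that the authors normalised per sample, given once per peak. The deposited FDR lists hold adjusted p-values under 0.05, and the deposited footprint lists carry the same p-value of 0.01 on each footprint, read here as the threshold of the call. Footprints were 7 to 71 bp long. Read depth is unknown. Reads of CAST/EiJ alleles were placed on mm10, and the effect of this was not tested.

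The shorter peak list of each sample was used, and shared peaks were merged at 1 bp of overlap. Footprinted sites were standardised to the unfootprinted distribution of mean height in bins of 0.1 on the log2 scale. Differences carry normal 95% intervals. Share ratios join exact binomial limits of the unfootprinted share with normal limits of the standardised share. They replaced log-scale intervals, which gave no usable limits at counts of 0 and 1, after a first look. Intervals cover variation between sites only and not between animals. No p-values are given. Of 40 comparisons, 10 had intervals that excluded no difference. Among these 10 is the replicate height ratio, which is only a description because the footprint lists were part of the selection. The CTCF ratio, also among them, is not independent of the selection either. Motifs were counted 75 bp to each side of the centre on both strands of GRCm38, and 13 gene lists were matched by symbol to GENCODE M21. Peaks up to 500 bp away, CpG classes and 3 alternatives were added after seeing the data. Sites, lists and motifs were chosen with earlier results of these data known. Named sites were the 10 highest and up to 2 per gene list, and sequences were those of the 3 highest and of sites with SF-1, AP-1 and CTCF motifs, with footprinted ones of the same height. The Polr1d site was chosen after its values were seen. The functions were tested on simulated data. Python 3.11.15, numpy 2.4.6, pandas 2.3.3 and scipy 1.17.1 were used.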

Additional observations from a re-analysis of the deposited data

How the results depend on the processing

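The number of sites depended most on the processing. It was 230 by the rule, 1509 with the longer peak list, 125 beyond 5 kb of every start, 141 with at least 50% overlap of both peaks and 43 without a neighbour. With 1 replicate left out it was 2617 to 6649, where both the need for a peak in each replicate and 1 footprint list are dropped (29291 and 66220 distal sites). On the 26622 shared sites, 1 footprint list alone gave 648 or 914. GC content and CpG ratio kept the sign of their difference, with an interval that excluded 0, under each alternative run, as did the neighbour ratio above 1 where it could be computed, which was not the case for 50% overlap or lone sites. The CpG difference ran from 0.0256 with the longer list to 0.199 with 50% overlap, and the CTCF ratio from 0 to 0.465, with an interval that included 1 in the 43 lone sites (0). The 10 comparisons whose interval excluded no difference, which include the descriptive replicate height ratio, had 130 alternative values. Of these, 103 kept direction and an interval that excluded no difference, and 4 had the other direction. The other 30 comparisons had 471 alternative values. Of these, 100 had the other direction, 8 kept direction with an interval that excluded no difference, and 45 had no interval.

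With the longer list, width differed by -12.3 bp, the SP/KLF ratio was 1.97 and the CAGATG ratio 0.988. Beyond 5 kb, repeats differed by -1.55 percentage points, log10 distance by -0.0526, the exon ratio was 1.68 and the CAGATG ratio 0.846. With 50% overlap, the exon ratio was 1.80 and the CAGATG ratio 0.613. With 1 replicate left out, width differed by -33.2 to -22.3 bp and repeats by -0.694 to -0.452 percentage points. In the same fits the ratios were 0.920 to 0.924 for CAGATG, 1.42 to 1.56 for SP/KLF, 1.04 in both for introns, 0.761 to 0.952 for GATA, 0 to 0.415 for REST and 0.983 to 1.09 for CAGCTG. They were 0.857 to 0.865 for C/EBP, 0.501 to 0.810 for NRF1, 0.775 to 0.977 for FOX and 0.50 to 0.545 for SRF. Matching on width left 12.8 bp. With 1 nearest footprinted site per site, repeats differed by -2.28 points, the exon ratio was 1.69 and the CAGATG ratio 0.808. A 50 bp window gave a CAGATG ratio of 0.640 and a 100 bp window an AP-1 ratio of 0.575, whose interval lay below 1. With neighbours matched, an alternative chosen after seeing the data like the next ones, width differed by 3.48 bp and repeats by -1.03 points, and the CAGATG ratio was 0.698. In the 43 lone sites, width differed by -29.5 bp, log10 distance by -0.155 and the log2 replicate ratio by -0.02 (-0.0167), and the ratios were 1.23 for exons, 0 for CTCF, 5.92 for RORE (TAGGTCA) and 0.541 for CAGATG. With distance to a start matched, the exon ratio was 1.37. The causes of these changes were not tested. No paired analysis was possible because there was only 1 group. Depth is unknown, so whether more reads would add footprints in the 230 sites was not tested.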
